A study of Homo sapiens with 10 samples.

Results

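The cancer testis antigen genes described here are the members of the MAGEA, MAGEB, MAGEC, GAGE, PAGE, XAGE, SSX, CTAG and CT45A families together with PRAME. They were taken by gene name from the deposited annotation, leaving out names of pseudogene form, which gave 75 of 57110 genes and 151 of 99493 transcripts. The rule went by name only: among the genes kept, MAGEA5, SSX6 and SSX9 are typed as transcribed unprocessed pseudogenes in GENCODE 29. Transcripts were counted by nanopore sequencing, which reads whole cDNA molecules, in 10 libraries of 7 human ovarian cancer cell lines. COV504, OVTOKO, COV362, OVKATE, OVMANA and SK-OV-3 had 1 library each from the PromethION, the larger nanopore instrument. IGROV-1 had 4 libraries, 2 from the PromethION and 2 from the smaller MinION. The labels give no treatment, passage or culture for any line, and nothing says that the IGROV-1 replicates came from separate cultures, so the p-values below measure only the spread between these libraries, which may be technical.

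Cancer testis antigens are proteins normally made in the germ cells of the testis and, for some, in the placenta, and they are made again in many tumours. Most of their genes lie on the X chromosome, in clusters of close copies, and are kept silent in body tissues by methylation of CG dinucleotides in their promoters. Peptides from several of them, among them MAGEA4, PRAME and NY-ESO-1 (the product of CTAG1A and CTAG1B), are recognised by T cells and serve as targets of immunotherapy. MAGE proteins bind RING-type ubiquitin ligases, SSX proteins bind chromatin and are known from the SS18 fusions of synovial sarcoma, and PRAME is a leucine-rich repeat protein that serves as the substrate receptor of a cullin 2 ubiquitin ligase and is known to repress retinoic acid receptor signalling. In these data 74 members lay on chromosome X and 1, PRAME, on chromosome 22.

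Most members were at 0. Of the 75 genes, 58 had no count in any library and 17 had at least 1 count in at least 1 library. Of all 57110 genes, 36.2% had a count in at least 1 library, so most genes of any kind were undetected as well. PRAME was detected in all 10 libraries, and 11 members were detected in a single library each. The 75 members held 3108 counts over the 10 libraries, of which PRAME took 69.2% and MAGEA4 25.5%. A read stands for a molecule here and counts were not divided by transcript length, so these are shares of counts and not of mass. Library totals lay between 1729782 and 3666224 counts, and a count of 0 in all 10 libraries allows up to 3 counts, or 0.13 CPM (the count scaled to a common library size), for counting error only.

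**Figure D1:**
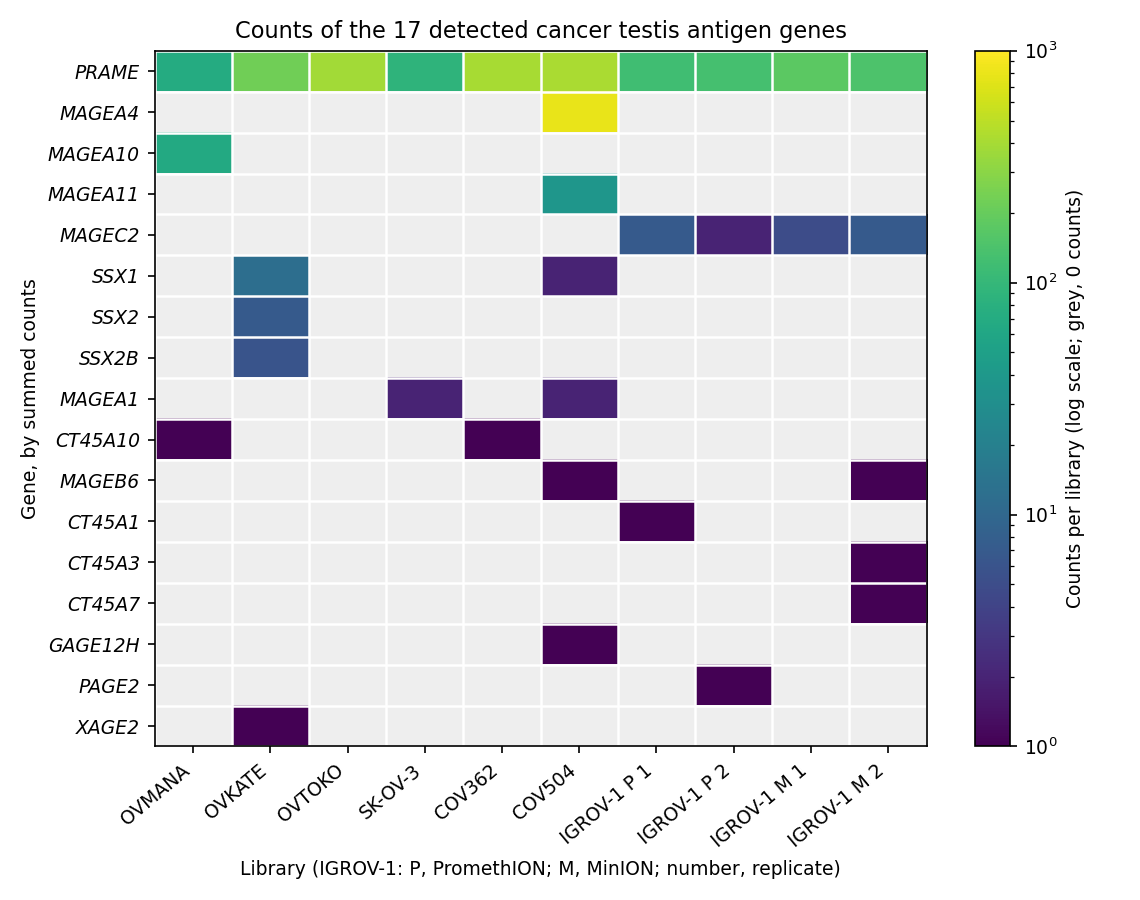
Counts of the 17 detected cancer testis antigen genes (rows, ordered by summed counts) in the 10 libraries (columns), with colour on a log scale and grey for 0 counts. PRAME fills its whole row from 70 to 417 counts, MAGEA4 has 791 counts in COV504 and 0 elsewhere, and 9 genes never exceed 2 counts.

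The promoter stretches of the members that carried the counts are shown first, because expression of this group is known to depend on methylation of promoter CG dinucleotides and on ETS family factors, whose binding motifs have a GGA core. RefSeq promoter windows on GRCh38.p14, from 250 bases before to 50 bases after each gene start, were matched by symbol for 56 of the 75 members, with 75 windows in all. The 120 bases before a RefSeq start are printed 5′ to 3′ on the gene's own strand, and capitals mark CCGGAT. For PRAME, where the deposited transcript ENST00000398743 starts 75 bases upstream of the RefSeq start at 22559265, the 120 bases before that upstream start are printed. The stretches come from chr22:22559341-22559460 (minus strand) for PRAME, from chrX:151912769-151912888 and chrX:151916805-151916924 (plus strand) for 2 of the 5 RefSeq starts of MAGEA4, from chrX:149711940-149712059 (plus strand) for MAGEA11 and from chrX:142205291-142205410 (minus strand) for MAGEC2.
PRAME: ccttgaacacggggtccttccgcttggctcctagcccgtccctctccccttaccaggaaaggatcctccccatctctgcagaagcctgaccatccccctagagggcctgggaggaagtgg
MAGEA4, start at 151912889: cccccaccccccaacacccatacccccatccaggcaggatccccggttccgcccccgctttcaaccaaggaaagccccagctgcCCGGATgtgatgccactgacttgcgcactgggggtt
MAGEA4, start at 151916925: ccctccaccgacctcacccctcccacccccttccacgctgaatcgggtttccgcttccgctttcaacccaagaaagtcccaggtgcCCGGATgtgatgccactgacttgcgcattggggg
MAGEA11: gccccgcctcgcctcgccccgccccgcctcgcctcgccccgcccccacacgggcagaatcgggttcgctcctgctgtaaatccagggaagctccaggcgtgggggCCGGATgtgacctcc
MAGEC2: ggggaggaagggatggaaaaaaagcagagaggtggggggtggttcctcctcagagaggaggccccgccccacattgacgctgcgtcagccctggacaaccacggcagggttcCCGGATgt

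The MAGE stretches held CCGGAT and the PRAME stretch held neither motif. The PRAME window held CCGGAA, read on the other strand as TTCCGG, at 22559280 to 22559285, inside the first exon of ENST00000398743 and of 2 other deposited transcripts. All 5 windows of MAGEA4 shared the 12 bases GCCCGGATGTGA, which began 47 to 24 bases before the RefSeq start. In the window at 151918288 the CCGGAT, at 151918243 to 151918248, lay inside the first exon of ENST00000360243, which starts at 151918227. CCGGAT occurred in 21 of the 75 member windows (28.0%), against 7.1% of the 35116 windows of all genes. CCGGAA occurred in 8.0% of member windows and 17.2% of all windows, and the GC box GGGCGG in 25.3% and 45%. The TATA sequence TATAAA was in 0 of the member windows and in 11.5% of all windows. A median member window held 12 CG dinucleotides, and a median window of all genes 14. Each motif was searched on both strands. CCGGAT and CCGGAA share their first 5 bases and cannot lie on the same 6 bases of 1 strand. The motifs were chosen after the windows had been read, near-identical members repeat the same window, and a match is a description and not a site. CCGGAT was in a window of 15 of the 56 matched genes and of 4 of the 14 detected genes with a window, so it was present in silent and in detected members alike. Neither CCGGAT nor CCGGAA was in the windows of SSX1, SSX2 and SSX2B, and MAGEA10 and MAGEA1 had no window in the table.

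PRAME (ENSG00000185686, chromosome 22, 22547701 to 22559340 on GRCh38, minus strand) was present in every line and its level split the lines into a higher and a lower set. Its counts were 417 in COV504, 400 in COV362, 386 in OVTOKO, 221 in OVKATE, 90 in SK-OV-3 and 70 in OVMANA. The IGROV-1 libraries held 119 and 130 counts on the PromethION and 174 and 144 on the MinION. On the CPM scale, OVTOKO was highest at 223.15 CPM, followed by COV504 at 185.53, COV362 at 156.71 and OVKATE at 109.31. SK-OV-3 had 45.58 CPM and OVMANA 37.4. IGROV-1 had 53.34 ± 3.54 CPM (SD, n = 2) on the PromethION and 45.98 ± 2.10 CPM (SD, n = 2) on the MinION. In such bulk libraries, fewer cells that express a gene and less RNA per cell cannot be told apart. The first 4 lines lay above all 4 IGROV-1 libraries, and OVMANA and SK-OV-3 lay below both PromethION libraries.

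Against IGROV-1 on the PromethION, PRAME rose in 4 of the 6 lines under edgeR's quasi-likelihood test with Benjamini-Hochberg adjustment over 13030 genes. Each line other than IGROV-1 is a lone library assumed to vary like the IGROV-1 replicates, and the 6 comparisons share the same 2 control libraries. The log2 change was 2.14 ± 0.17 (SE) in OVTOKO, with an adjusted p of 5e-05. It was 1.72 ± 0.17 in COV504 (adjusted p = 0.00011) and 1.60 ± 0.17 in COV362 (adjusted p = 2e-04). In OVKATE it was 0.73 ± 0.18 (adjusted p = 0.0093), a call that was lost in DESeq2 (adjusted p = 0.22). OVMANA and SK-OV-3 had log2 changes of -0.45 ± 0.21 and -0.46 ± 0.20, which did not pass the test (adjusted p = 0.13 and 0.10). Deviations of the same-numbered IGROV-1 libraries on the 2 instruments went together (r = 0.81 across 1553 genes of at least 100 CPM, which are not independent replicates), and the labels do not say what a number shares. With the replicate number as a term, SK-OV-3 passed (edgeR adjusted p = 0.034) and OVMANA did not (0.059). Calls were common across the transcriptome: of all genes tested, 34.1% passed in OVTOKO, 35.4% in OVMANA, 41.8% in SK-OV-3, 42.5% in COV362, 43.5% in COV504 and 49.2% in OVKATE. A call in PRAME is read against this background.

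The order of the lines was then tested between neighbours, a step chosen after the levels were seen. OVTOKO against COV504 did not pass the test (log2 difference 0.42 ± 0.19, edgeR adjusted p = 0.12, where 31.3% of all genes were called), but it passed with the replicate number as a term (edgeR adjusted p = 0.0022). COV504 against COV362 did not pass in either fit (0.12 ± 0.19, edgeR adjusted p = 0.67, and 0.45 with the replicate number, with 25.2% of genes called). COV362 exceeded OVKATE by 0.86 ± 0.20 (edgeR adjusted p = 0.011, with 33.2% of genes called), a call lost in DESeq2 (adjusted p = 0.41). SK-OV-3 and OVMANA could not be ordered: the log2 difference was -0.01 ± 0.24 (edgeR adjusted p = 1, with 34.3% of genes called). The trimmed normalisation (TMM) shifted the median gene by -0.30 on the log2 scale in OVKATE and by -0.23 in SK-OV-3 relative to plain CPM, and by at most 0.08 in size in the other libraries. On the normalised scale PRAME was at 91.95 CPM in OVKATE and at 40.33 in SK-OV-3, just under the 40.47 of OVMANA, so this last order is the reverse of that on plain CPM.

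**Figure D2:**
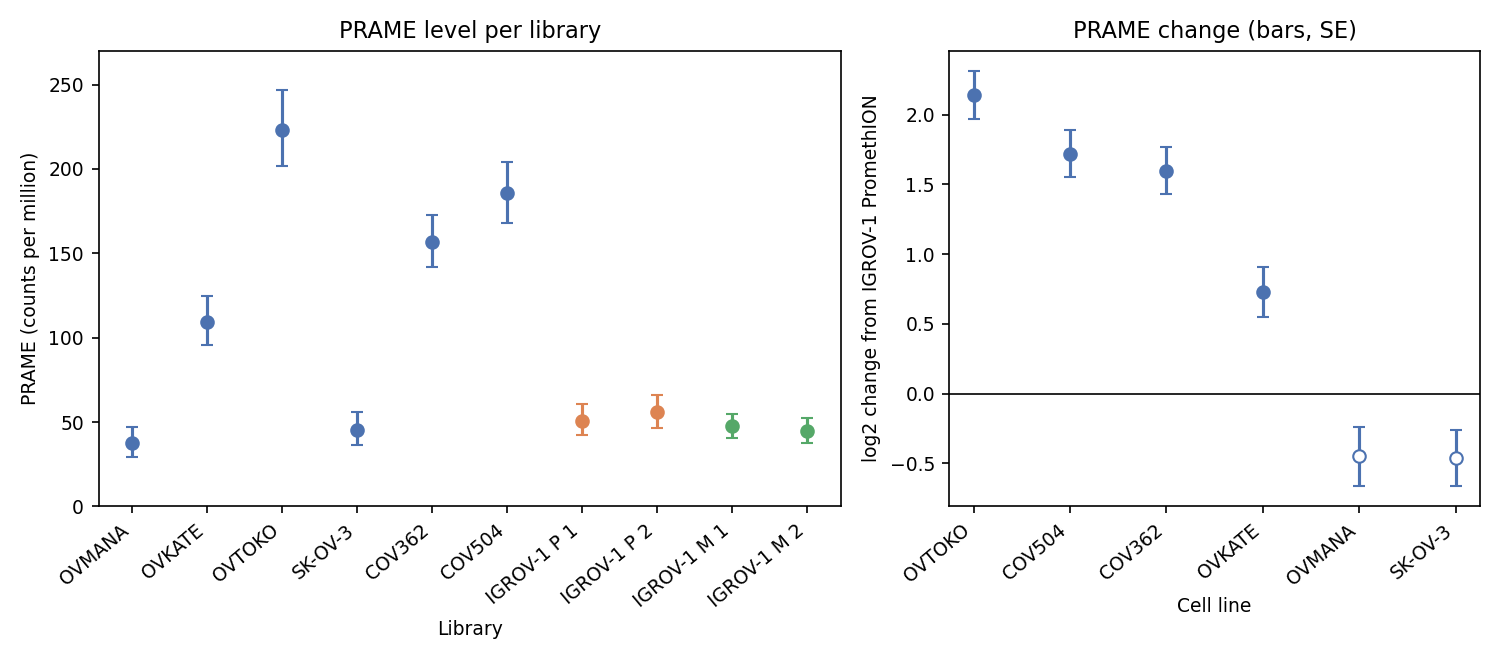
Left, PRAME in CPM for each of the 10 libraries, with bars for the 95% exact Poisson interval of the count (other lines in blue, IGROV-1 PromethION in orange, IGROV-1 MinION in green). Right, log2 change of each line from IGROV-1 PromethION with its SE, filled where called, showing 4 lines between 0.73 and 2.14 and OVMANA and SK-OV-3 near -0.45.

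Within IGROV-1 the instruments gave similar PRAME levels. The MinION libraries differed from the PromethION libraries by a log2 change of -0.25 ± 0.15 (edgeR adjusted p = 0.45, in a fit of 10041 genes), and both MinION values lay below both PromethION values on the CPM scale. Only 0.817% of genes were called between the instruments, 82 of 10041, and 0 members were. PRAME was the single member that passed the expression filter of this comparison, where its unadjusted p was 0.13, and DESeq2 did not call it either (adjusted p = 1).

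PRAME transcripts start from alternative first exons, and the estimated share of each varied between libraries. Of its 6 deposited transcripts 5 received counts, and all 5 carry the same coding sequence of 509 codons, so they differ only in untranslated exons. ENST00000398743 starts farthest upstream, at 22559340, and ENST00000398741 and ENST00000405655 start 197 bases downstream, at 22559143. The downstream pair took 52.9% of PRAME counts in OVKATE (95% Wilson interval 46.4% to 59.4%) and 51.0% in COV504 (46.3% to 55.8%). It took 35.7% in COV362 (31.2% to 40.6%), 25.2% in OVTOKO (21.1% to 29.7%) and 24.3% in SK-OV-3 (16.7% to 34.2%). OVMANA was lowest of these lines, at 10.8% (5.9% to 21.0%). In IGROV-1 the share was 13.3% ± 2.4 (SD, n = 2) on the PromethION and 5.3% ± 0.3 (SD, n = 2) on the MinION. For IGROV-1 replicate 2 the intervals of the PromethION (10.2% to 22.6%) and the MinION (2.4% to 9.7%) did not overlap, and for replicate 1 they did. Intervals that do not overlap can thus occur within a line.

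OVKATE and COV504 thus had shares whose counting intervals overlapped each other's and those of no other library. The share did not follow the level, since OVTOKO had the highest PRAME level and a middle share. The member that made up the downstream pair also differed. In COV504 ENST00000398741 held 44.9% of PRAME counts and ENST00000405655 6.1%, whereas in COV362 they held 16.5% and 19.2%. A usage test across 4730 genes (edgeR, Simes p per gene, added after the shares were seen) did not call PRAME in any line. The adjusted p was 0.09 in COV362, 0.10 in COV504, 0.12 in OVKATE and 1 in OVMANA, OVTOKO and SK-OV-3. The unadjusted p was 0.0040 in COV362, 0.0036 in COV504 and 0.010 in OVKATE, and the usage test called 2.88%, 2.47% and 4.74% of genes there and 2.9%, 1.37% and 2.01% in OVMANA, OVTOKO and SK-OV-3. The estimates assign each read among transcripts that share most of their sequence, so these intervals cover counting error only.

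**Figure D3:**
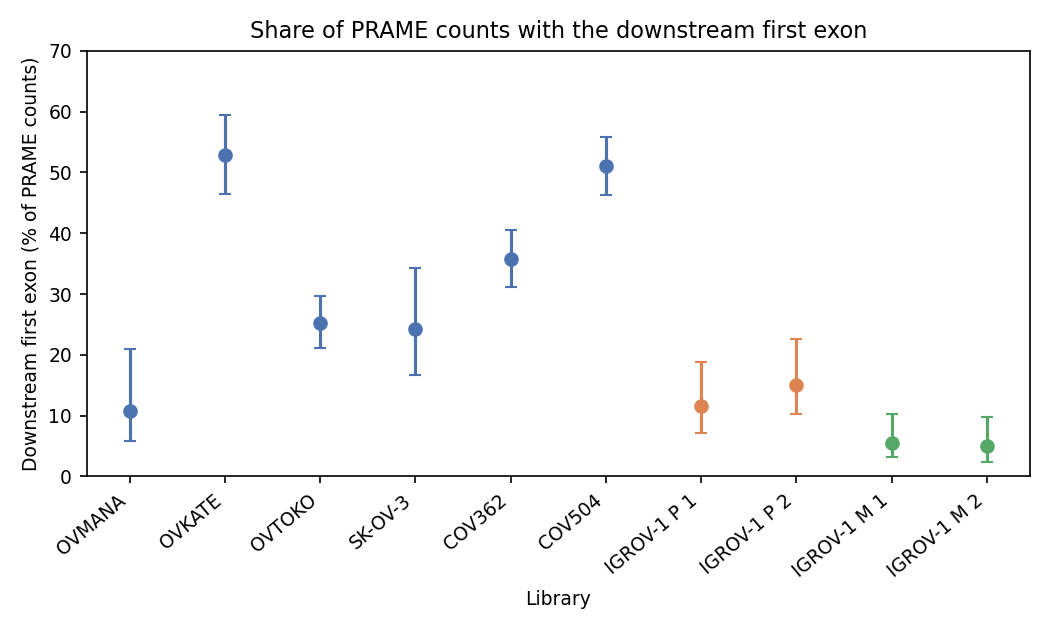
Share of PRAME counts assigned to the 2 transcripts with the downstream first exon in each library, in percent, with 95% Wilson intervals (other lines in blue, IGROV-1 PromethION in orange, IGROV-1 MinION in green). OVKATE and COV504 sit at 52.9% and 51.0%, and the 4 IGROV-1 libraries at no more than 15%.

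The MAGEA family, whose members are the classic tumour antigens of this group, was the only family besides PRAME with a member above 10 CPM, and its members divided between lines. Of its 14 members, 4 were detected and each of the 3 larger ones in a single line. MAGEA4 (ENSG00000147381, chromosome X, 151912889 to 151925170, plus strand) had 791 counts in COV504, or 351.92 CPM (exact Poisson interval 327.82 to 377.33), and 0 counts in the other 9 libraries. The level in COV504 was at least 547.7-fold higher than in IGROV-1 on the PromethION, taking 3 counts over both control libraries as the floor. MAGEA11 (ENSG00000185247, chromosome X, 149688824 to 149717266, plus strand), which binds the androgen receptor, had 38 counts in COV504 (16.91 CPM) and 0 in the other 9 libraries, at least 26.3-fold higher than in IGROV-1. MAGEA10 (ENSG00000124260, chromosome X, 152133310 to 152138578, minus strand) had 66 counts in OVMANA (35.27 CPM) and 0 in the other 9 libraries, at least 54.9-fold higher. MAGEA4 and MAGEA10 were thus on in different lines and never together.

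All 3 were called by edgeR in their line. In DESeq2 MAGEA4 was still called, MAGEA10 was not and MAGEA11 had no adjusted p. With PRAME, these were the 4 members that passed the expression filter. Each of the 3 MAGEA genes passed it only through the line in which it was on, a lone library against 0 counts. These calls and their number are therefore no support for a difference. MAGEA1, the founding member of the family, had 2 counts in SK-OV-3 and 2 in COV504. The other 10 members (MAGEA2, MAGEA2B, MAGEA3, MAGEA5, MAGEA6, MAGEA8, MAGEA8-AS1, MAGEA9, MAGEA9B and MAGEA12) were at 0 in all libraries. MAGEA8-AS1 is an antisense RNA that carries the family's name, and the sources used here do not say if reads were counted by strand.

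MAGEA4 is known for a row of alternative first exons, each joined to the same coding exon. In COV504 most counts were assigned to the upstream ones. The estimates assign each read among transcripts that share most of their sequence, in a lone library, so the Wilson bound below covers counting error only. All 6 transcripts encode the same 317 codons, in a single exon. ENST00000276344, with the most upstream start, held 423.5 of the 791 counts (53.5%, upper Wilson bound 56.9%). ENST00000393921, which starts 616 bases farther on, held 237.2 counts (30.0%). Together these 2 took 83.5%. Of the 4 remaining transcripts, ENST00000360243 held 78.2 counts and starts 5338 bases from the first. ENST00000393920 held 35.5 counts, and ENST00000370335 and ENST00000370340 held 8.3 each. The shared GCCCGGATGTGA printed above stood before starts of low as well as high estimated counts. The start of ENST00000276344 and that of ENST00000393920 are both among the 5 windows.

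**Figure D4:**
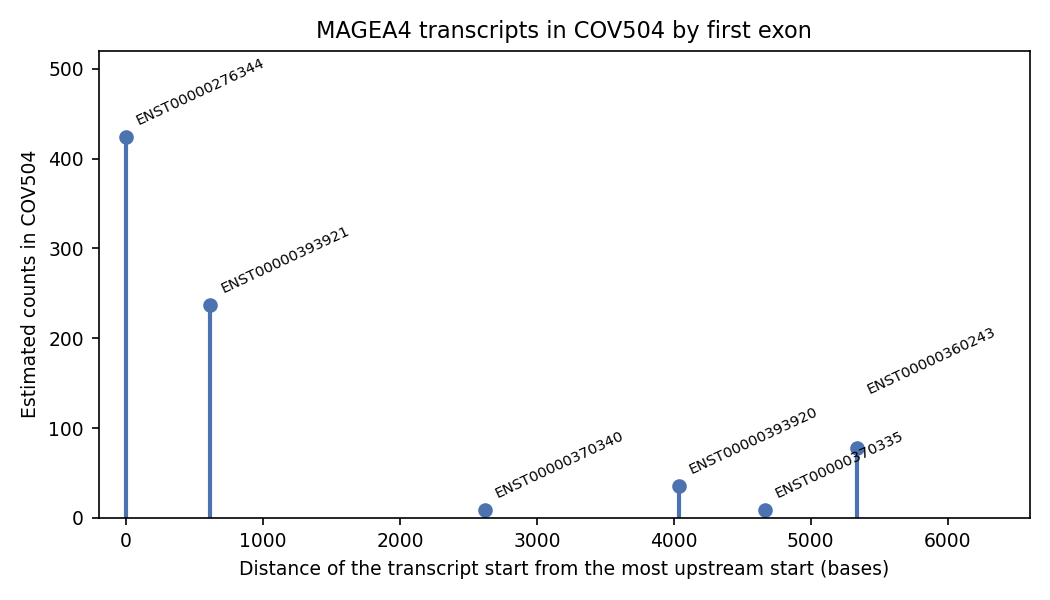
Estimated counts of the 6 MAGEA4 transcripts in COV504 against the distance of each start, in bases, from the most upstream start. The starts at 0 and 616 bases hold 423.5 and 237.2 counts, and those from 2619 to 5338 bases hold 8.3 to 78.2.

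MAGEA10 counts in OVMANA were split between ENST00000370323 with 39.8 counts (60.4%, Wilson interval 48.5% to 71.5%) and ENST00000244096 with 26.2. Both encode 369 codons in a single exon, and they differ in their untranslated exons. MAGEA11, described here by transcript after its values were seen, had 21.3 counts for ENST00000355220 and 16.7 for ENST00000333104 in COV504. These 2 start from first exons far apart, at 149712078 and 149688824, and encode 429 and 400 codons over 4 coding exons, so the split bears on the protein. With 38 counts the interval of the first share was 39.7% to 69.9%, and which form was more abundant was not detectable at this depth. The limit given for MAGEA4 on assigning reads to transcripts holds for these splits as well.

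Genes beside the members are given with the background that 36.2% of all 57110 genes had a count in at least 1 library. Within 200 kb of MAGEA4, 2 of 8 neighbouring genes outside the group were detected. AF274855.1, an antisense RNA that overlaps the 2 most upstream first exons of MAGEA4, was at 1.33 CPM in COV504, the MAGEA4 line, and 0 in all other libraries. That level is the floor of 3 counts in this library and is not distinguished from 0 here. Whether reads were counted by strand is not stated, and a part of MAGEA4 reads in it was not tested. GABRE, a GABA receptor subunit, ranged from 0.39 to 4.95 CPM over the 6 lines and was at 0 in the 4 IGROV-1 libraries. Near MAGEA10, GABRE and GABRA3 were the detected 2 of 8, and GABRA3, a further GABA receptor subunit, had 1.01 CPM in SK-OV-3 and 0 in OVMANA. Around MAGEA11, 4 of 16 were detected, and TMEM185A lay between 5.15 and 14.84 CPM in all libraries. PRAME lies in the immunoglobulin lambda locus, and of its 52 neighbours 3 were detected. ZNF280A had 12.14 CPM in OVTOKO, where PRAME was also highest, 0.51 in SK-OV-3 and 0 elsewhere, and ZNF280B was detected in all 10 libraries, from 0.99 CPM in OVKATE to 15.61 in OVTOKO.

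MAGEC2 (ENSG00000046774, chromosome X, 142202345 to 142205290, minus strand), a partner of the ligase and co-repressor TRIM28, was the only member with counts in all 4 IGROV-1 libraries and in no other line. It had 7 and 2 counts in the PromethION libraries and 5 and 7 in the MinION libraries. The 21 counts amount to 1.81 CPM over the 4 libraries, at least 7.5-fold higher than the 0.24 CPM that 0 counts in the 6 other libraries allow. It did not pass the expression filter, and with no filter it was not called in any line comparison (edgeR adjusted p = 0.14 to 0.26). Of the MAGEC family, MAGEC1 and MAGEC3 were at 0 in all libraries.

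The SSX family was seen mainly in OVKATE. SSX1 (ENSG00000126752, chromosome X, 48255317 to 48267444, plus strand), a fusion partner in synovial sarcoma, had 12 counts there (5.94 CPM, exact Poisson interval 3.07 to 10.37) and 2 in COV504. The level in OVKATE was at least 9.2-fold higher than the floor in IGROV-1. SSX1 was below the expression filter, and without a filter edgeR called it in OVKATE. That call set a lone library against 0 counts in IGROV-1, so it is no support for a difference. SSX2 and SSX2B had 7 and 6 counts in OVKATE and 0 elsewhere. These 2 genes carry a transcript that is 100% identical, so a read of it cannot tell them apart, and summed they had 13 counts (6.43 CPM), above the 0.64 CPM that 0 counts in both IGROV-1 PromethION libraries allow. The 8 remaining SSX genes had no count. Of the 27 neighbours of SSX1 within 200 kb outside the group, 2 were detected, and SLC38A5, an amino acid transporter, was at 104.36 CPM in OVKATE and at no more than 4.31 CPM in any other library.

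The remaining families held few counts. Of the 10 MAGEB genes only MAGEB6 was detected, with 1 count in COV504 and 1 in an IGROV-1 MinION library. Of the 9 CT45A genes 4 were detected with 5 counts in all, spread over OVMANA, COV362 and 2 IGROV-1 libraries. GAGE12H had 1 count in COV504 among 13 GAGE genes, PAGE2 had 1 count in an IGROV-1 PromethION library among 6 PAGE genes, and XAGE2 had 1 count in OVKATE among 5 XAGE genes. CTAG1A, CTAG1B and CTAG2 were at 0 in every library. A level of 1 or 2 counts is within the floor of 3 counts and is not distinguished from 0 here.

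Close copies are a limit on these zeros. For 8 of the 17 detected members and 23 of the 58 undetected ones, the nearest other member had a transcript at least 98% identical. The median identity to the nearest member was 85.8% for detected members and 93.9% for undetected ones. How the authors treated reads that map equally well to several copies is not given in the sources used here, and its part in the zeros was not tested. Identity was taken over the whole of the longer transcript, so unequal lengths lower it. By this measure the nearest members of MAGEA4 and MAGEA10, MAGEA1 and MAGEB4, were 83.70% and 54.57% identical. PRAME, of another family, reached 51.26% with MAGEA2, so the value of MAGEA10 is near that of unrelated genes. Sharing of reads between MAGEA4 or MAGEA10 and other members was not tested.

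Summed over the 75 members, COV504 was highest at 557.02 CPM, of which MAGEA4 and PRAME made up nearly all. OVTOKO followed at 223.15, which was PRAME alone, then COV362 at 157.1, OVKATE at 122.16, OVMANA at 73.2 and SK-OV-3 at 46.59. The IGROV-1 libraries lay between 47.58 and 57.13 CPM. The number of members at or above the floor of 3 counts was 4 in OVKATE, 3 in COV504 and 2 in OVMANA. It was 1 each in OVTOKO, SK-OV-3 and COV362, and 1 or 2 in the IGROV-1 libraries. The 4 in OVKATE include SSX2 and SSX2B, which share an identical transcript, so its place above COV504 rests on counting these copies apart.

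The labelled cell type was checked against marker genes. The Müllerian factor PAX8 had at least 166 counts in each library. In the 4 IGROV-1 libraries the 7 epithelial markers were mixed. CDH1 and WT1 were at 0, EPCAM at no more than 5 counts and KRT8 at 12 to 37 counts. KRT19 had 328 to 573 counts and KRT18 615 to 3494. On the normalised scale KRT18 was at 271.79 CPM (PromethION) and 255.83 CPM (MinION) in replicate 1. In replicate 2 it was at 1081.95 and 1059.38 CPM. Other lines were mixed as well. CDH1 had 401 counts in OVMANA, 305 in OVKATE and 133 in COV504, but 10 in SK-OV-3 and 4 each in OVTOKO and COV362. On the normalised scale KRT19 was at 0.63 CPM and EPCAM at 9.49 CPM in OVTOKO, and WT1 exceeded 0.42 CPM only in OVKATE (64.07 CPM). Of 10 germ cell and testis markers 5 were detected, with a summed level of 0 to 3.47 CPM. DAZL, SYCP3, TNP1, PRM1 and PRM2 were at 0 in all libraries, and COV504, the line with the highest member sum, was at 0 for all 10. Placental markers summed to 0 to 1.52 CPM and immune markers to 0 to 0.78 CPM. Fibroblast markers summed to 0.58 to 435.26 CPM, led by COL1A2 at 429.38 CPM in COV362 and COL1A1 at 219.3 CPM in SK-OV-3, and endothelial markers to 0.53 to 27.58 CPM, highest in COV504. The part of these genes in the member results was not tested. Melanocyte markers reached 3.96 CPM, with MLANA and TYR, 2 of the 3, at 0 throughout. Mitochondrial ribosomal RNA took 9.13% and 10.95% of counts in the IGROV-1 PromethION libraries and 1.01% to 3.31% elsewhere, which touches the control libraries of every line comparison. Leaving it out changed no call of a member.

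The genes that act on or with these antigens were described by lists of 29 regulators and partners, 11 ubiquitous MAGE genes and 44 other cancer testis genes. Of the regulators and partners, 27 were tested. COV362 had 7 that rose and 4 that fell, COV504 5 and 7, SK-OV-3 5 and 9, OVMANA 3 and 5, OVKATE 2 and 6, and OVTOKO 1 and 5. The list's median log2 change lay between -0.24 in OVKATE and 0.09 in COV504, against -0.01 to 0.04 over all genes tested. By line, these are shares of a list against a background in which 34.1% to 49.2% of genes were called, and nothing particular to the list is read from them.

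Among MAGE partners, NSMCE3 (MAGEG1), the MAGE subunit of the SMC5/6 complex, fell in all 6 lines. It was at 53.33 ± 2.33 CPM (SD, n = 2) in IGROV-1 on the PromethION and between 10.15 CPM in OVMANA and 37.98 in SK-OV-3. Its log2 change ran from -2.33 ± 0.26 in OVMANA (edgeR adjusted p = 0.0003) to -0.72 ± 0.20 in SK-OV-3 (edgeR adjusted p = 0.021). The SK-OV-3 call was lost without IGROV-1 PromethION replicate 2 (0.064), MinION replicate 1 (0.054) or MinION replicate 2 (0.061), and in DESeq2 only OVMANA was called (adjusted p = 0.013). TRIM28, the ligase partner of MAGEC2, rose in COV504 by a log2 change of 0.80 ± 0.14 (edgeR adjusted p = 0.0025) and fell in OVKATE, OVTOKO and SK-OV-3. It was at 222.54 and 217.78 CPM in IGROV-1 on the PromethION and at 275.49 and 301.25 CPM on the MinION. In DESeq2 these 3 falls were lost (lowest adjusted p = 0.074) and the rise held (adjusted p = 0.034).

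Among PRAME's partners, ELOB, the elongin B adaptor of cullin 2 ligases, rose in 5 of 6 lines. It was at 404.14 ± 2.34 CPM (SD, n = 2) in IGROV-1 on the PromethION and at 550.98 and 582.41 CPM on the MinION, the latter above OVTOKO (438.78 CPM) and near OVMANA (618.76 CPM) and COV362 (644.47 CPM). The instruments did not pass a test of their difference (log2 0.45 ± 0.12, edgeR adjusted p = 0.13). Against the PromethION pair its log2 change was largest in COV504 at 0.99 ± 0.14 (edgeR adjusted p = 0.00087) and smallest in OVTOKO at 0.20 ± 0.15, which did not pass the test (edgeR adjusted p = 0.35). OVTOKO was the line with the highest PRAME. All 5 ELOB calls held in DESeq2, where the highest adjusted p was 0.027.

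Among silencing factors, EHMT1, a histone H3 lysine 9 methyltransferase, fell in 5 lines, from 44.56 ± 9.86 CPM (SD, n = 2) in IGROV-1 on the PromethION to between 10.41 and 26.34 CPM. IGROV-1 on the MinION was at 25.91 and 29.04 CPM, level with SK-OV-3 at 26.34, and the instruments did not pass a test of their difference (log2 -0.74 ± 0.19, edgeR adjusted p = 0.13). COV362 did not pass the test (log2 change -0.66 ± 0.26, edgeR adjusted p = 0.069). The calls in OVMANA and SK-OV-3 were lost without IGROV-1 PromethION replicate 2, MinION replicate 1 or MinION replicate 2 (adjusted p up to 0.097), and DESeq2 called EHMT1 in no line (lowest adjusted p = 0.091). EED, a subunit of the Polycomb repressive complex 2, rose in OVKATE and COV362 and fell in OVTOKO, SK-OV-3 and COV504, and its OVKATE call was lost without IGROV-1 PromethION replicate 2 (0.077). The histone deacetylase HDAC1 rose in OVMANA and fell in OVTOKO, SK-OV-3 and COV362. Its OVMANA call was lost without IGROV-1 PromethION replicate 2 (0.086) or MinION replicate 1 (0.056). UHRF1, which guides maintenance DNA methylation, fell in OVMANA and SK-OV-3, from 12.85 ± 1.77 CPM to 3.21 and 2.53, and the OVMANA call was lost without IGROV-1 MinION replicate 1 (0.051). In DESeq2 no call of EED, HDAC1 or UHRF1 held (lowest adjusted p 0.077, 0.063 and 0.19).

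**Figure D5:**
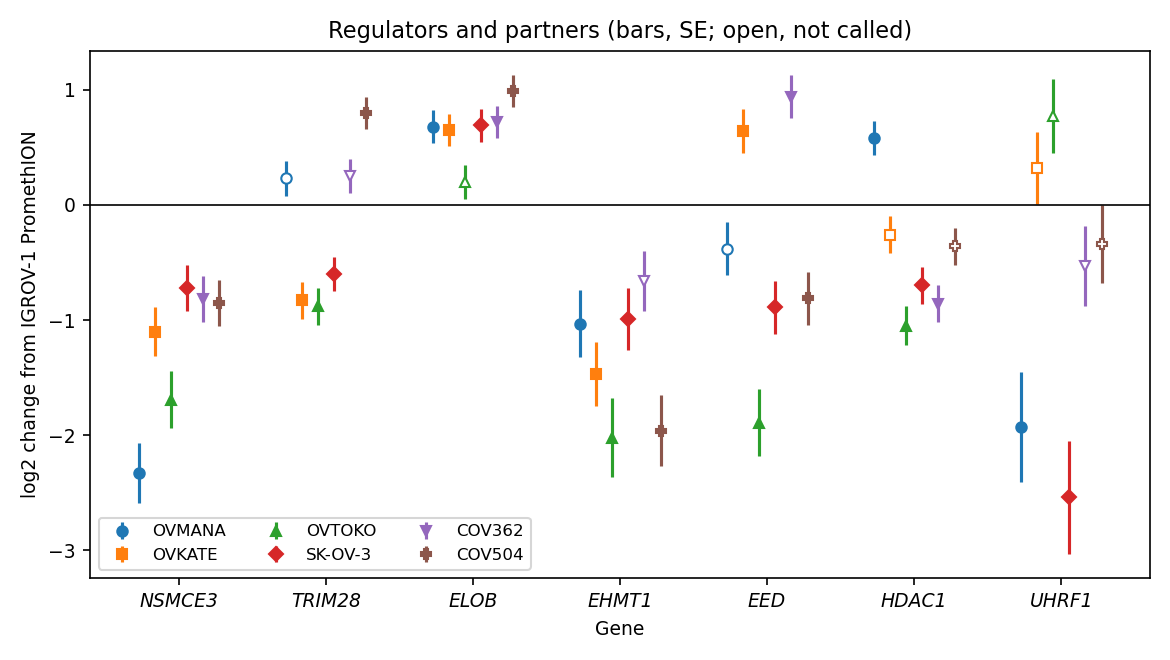
log2 change from IGROV-1 PromethION of 7 regulators and partners in the 6 other lines, with SE bars, filled where called and open where not. NSMCE3 lies below 0 in all 6 lines, ELOB lies above 0 in all 6 with OVTOKO open, and UHRF1 reaches -2.54 in SK-OV-3.

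The ubiquitous MAGE genes, which unlike the antigens are expressed in many body tissues, had a summed level of 228.69 to 721.65 CPM. Of the 11, MAGED1, MAGED2, MAGEF1 and NSMCE3 were detected in all 10 libraries and MAGEE2 in none. Of the 11, 7 were tested. COV362 had 4 that rose and 1 that fell, OVKATE 3 and 2, COV504 1 and 1, OVMANA 1 and 2, SK-OV-3 1 and 2, and OVTOKO 0 and 1. NSMCE3 is also on the list of regulators and partners, and its fall, given above, is 1 of the falls in each line. Of all genes tested, 34.1% in OVTOKO to 49.2% in OVKATE were called, and nothing particular to the list is read from these counts. With genes at 0 in IGROV-1 set to their bound, the list's median log2 change lay between -0.45 in OVMANA and 0.99 in COV362, over 4 to 7 genes. MAGEH1 rose in 4 lines: it had 88 counts in OVKATE, 23 in SK-OV-3, 110 in COV362 and 42 in COV504, against 0 in all IGROV-1 libraries and in OVMANA and 1 count in OVTOKO. That is at least 67.7-fold, 18.1-fold, 67.1-fold and 29.1-fold higher than in IGROV-1. NDN (necdin), an imprinted gene of this family, had 116 counts in COV362 and 0 in all other libraries, at least 70.7-fold higher. MAGEH1 and NDN passed the expression filter only through lines in which they were high, so no fall of either could be called. Any call of them set a lone library against 0 counts and is no support for a difference.

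Of the 44 other cancer testis genes, 40 had an identifier of their own in the table, 19 were detected and 5 were tested. OVMANA had 3 that rose, SK-OV-3 2, each of COV362, COV504 and OVTOKO 1, and OVKATE 0. Of all genes tested, 34.1% in OVTOKO to 49.2% in OVKATE were called. In no line was a fall called, but no detected gene of the list exceeded 6 counts in an IGROV-1 PromethION library, so a fall could hardly be called. The median log2 change, with bounds as above, lay between -0.02 in COV504 and 2.94 in OVMANA over 3 or 4 genes, which passed the filter through the lines where they were high. SPANXB1, a sperm protein of the X chromosome, had 54 counts in SK-OV-3 and 0 elsewhere, at least 42.6-fold higher than in IGROV-1. DDX43, a helicase of the germ line, had 17 counts in OVMANA, 4 in OVTOKO and 3 in COV362 and 0 elsewhere, at least 14.1-fold higher in OVMANA. DESeq2 gave neither gene an adjusted p. CTCFL (BORIS), known as an activator of these antigens, had 2 counts in COV362 and 0 in all other libraries, COV504 and OVMANA included.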

How the data were processed

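Nanopore libraries of total RNA from 10 samples (7 lines) were analysed, grouped by line and instrument as labelled. Per the labels' protocols, end repair lasted 30 min. Alignment used minimap2 2.24-r1122 and GRCh38, per the submitters' processing notes; how reads were quantified, shared among copies or assigned to a strand is not stated in the labels. The authors deposited estimated counts per transcript and TPM values, and this deposited TPM equals CPM to within 5.6e-11, with no length scaling. The deposited annotation names genes, and its other columns hold positions.

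Estimated counts were summed per gene and rounded. The main test was edgeR 4.0.16 (R 4.3.3), quasi-likelihood, TMM, filterByExpr by group (minimum 10 counts), two-sided, Benjamini-Hochberg, called at an adjusted p under 0.05, over all 10 libraries for lines (2 residual degrees of freedom, 11.7% coefficient of variation, all from IGROV-1) and over the 4 IGROV-1 libraries for instruments. DESeq2 was the alternative. Intervals are 95% Wilson or exact Poisson, and intervals and floors (3 counts) cover counting error only. IGROV-1 replicates differed by more than counting noise (chi-square per degree of freedom 4.04 and 6.27), so neither pair is a library deposited again. In simulated counts for the COV504 comparison, 200 genes drawn from the better covered ones were changed. Of these, 51.5% were found at log2 1 (10311 genes) and 96.5% at log2 2 (10297 genes), and 2.8% and 5.4% of the calls were false. The real comparison called far more genes and most members had fewer counts, so these values are not the power for the members. The instrument comparison recovered 87% at 1 (9992 genes), and the usage test for COV504 93.5% at 3 (3237 genes).

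The members and lists were chosen with earlier results of these data known. Named with values are members of at least 10 CPM in a library, the top member of each family with at least 10 counts, and, of each list, genes called in at least 4 lines and the 2 with the largest change. Transcripts are described for members of at least 50 counts in a library. Protein sequences were not used here. The values of 1 listed gene are not reported here.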

Additional observations from a re-analysis of the deposited data

How the results depend on the processing

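Over the 6 line comparisons 7 calls of members were made, and 7 or 8 under each alternative except DESeq2, with 4. Of the 7, 3 were of the MAGEA genes that passed the filter only through their own line, and these are no support for a difference. Leaving out each IGROV-1 library in turn gave 7 each time. The 80 calls among the other listed genes became 18 with DESeq2 and 66 to 86 without 1 IGROV-1 library. DESeq2 lost PRAME in OVKATE (adjusted p = 0.22), MAGEA10 in OVMANA (0.053) and the PRAME difference of COV362 and OVKATE (0.41); the cause was not tested. Deviations of same-numbered IGROV-1 libraries correlated by 0.27 over 11651 genes and by 0.81 over the 1553 genes of at least 100 CPM. The labels do not say what a number shares, and 2 pairs do not settle it. If same-numbered libraries share material, the main fit, which has no replicate term, counts paired libraries as independent. With the replicate block as a term, 8 calls of members and 112 calls among the other listed genes were made over the 6 comparisons, PRAME in SK-OV-3 gained a call (adjusted p = 0.034) and so did the PRAME difference of OVTOKO and COV504 (0.0022). The instrument comparison called 0 members under every alternative run. The PRAME difference between SK-OV-3 and OVMANA, -0.01, became 0.01 with no filter, 0.02 without IGROV-1 MinION replicate 2 and 0.02 with the 8 PromethION libraries alone. The usage test called PRAME in 0 lines under every alternative, the lowest adjusted p being 0.089. The 17 detected members became 8 at a minimum of 3 counts, 5 at 10 counts and 13 with near-identical members summed, an alternative chosen after seeing the data. The summed level without mitochondrial ribosomal RNA rose from 54.25 to 59.7 CPM and from 57.13 to 64.15 CPM in the IGROV-1 PromethION libraries. Members at a few counts are limited by depth, and a lone library per line gives no replicate check of its own.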
